A study of Mus musculus with 12 samples.

Results

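The comparison described here asked what changed in the marrow of CD70 transgenic mice when the gene for interferon-gamma (Ifng) was also missing. Its members were chosen by genotype label alone: 3 CD70TG*Ifng-/- arrays were set against 3 CD70TG arrays, 6 of the 12 arrays of the series. The other 6 arrays came from 3 Ifng-/- mice and 3 wild-type (WT) mice, and served as the same loss without the transgene. All 4 groups were male C57BL/6J mice of 10 to 12 weeks of age, with 3 mice a group and 1 array per mouse. Both compared groups carried the CD70 transgene (CD70TG), and they differed in Ifng, intact in one and lost in the other.

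Every array measured total RNA of bone marrow cells of the hind legs that had been enriched on magnetic beads for CD71, the transferrin receptor. CD71 is abundant on red cell precursors, and other marrow cells can remain in such a preparation. CD70 is the ligand of CD27, a costimulatory receptor of T cells, and chronic exposure to CD70 is known to drive T cells towards interferon-gamma production. The labels name clone F13 for the CD70TG mice and give no clone for the CD70TG*Ifng-/- mice. They name neither the promoter that drives the transgene nor the design of the Ifng allele.

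Interferon-gamma binds a receptor made of Ifngr1 and Ifngr2, which signals through the kinases Jak1 and Jak2. Genes with gamma-activated sites respond, among them Irf1, a transcription factor that binds interferon-stimulated response elements. The program that follows includes GTPases that act on intracellular pathogens, the immunoproteasome, and the class I and class II antigen presentation pathways. In the marrow, sustained interferon-gamma is known to hold back red cell formation and to act on macrophages.

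The deposited values were log2 values relative to each gene's own median over the 12 arrays. They hold differences between arrays and no absolute level, and the log base and direction were taken from what the RMA method gives. A gene was called where limma's two-sided test gave a p under 0.05 after Benjamini-Hochberg adjustment over all 19935 genes. The array medians lay between -0.021 and 0.027. The values of the Ifng probe set overlapped between groups, at -0.11, 0.05 and 0.01 in CD70TG and -0.11, 0.20 and 0.02 in CD70TG*Ifng-/- (difference 0.05 ± 0.09 SE, adjusted p = 0.871). It therefore gave no check of the genotype labels. Cd70 was 0.01, 0.05 and -0.01 in CD70TG against 0.05, 0.34 and 0.26 in CD70TG*Ifng-/- (0.20 ± 0.12, adjusted p = 0.585), and whether its probes detect the transgene was not tested.

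Loss of Ifng in transgenic mice lowered more genes than it raised over all genes. Of 19935 genes, 282 (1.41%) were called. The lower genes numbered 197 (0.988%) and the higher genes 85 (0.426%). Among genes whose original log2 level was at least 8, read from the rounding of the values, 44 were lower and 52 higher, and among the rest 153 and 33. At an unadjusted p under 0.05 stood 2239 genes, 11.2% of all. Called changes of at least 2-fold were found in 59 genes downward (0.296%) and in 5 genes upward (0.0251%). All 282 called genes had groups that did not overlap, a property of 3503 genes (17.6%) in all, 8.27% of genes being lower in this way and 9.31% higher. The median change over all genes was 0.02. The number of called genes was 165 without CD70TG 2, 173 without CD70TG 3, 143 without CD70TG*Ifng-/- 2 and 136 without CD70TG*Ifng-/- 3. Across all 12 fits that left out 1 array, 126 of the 282 genes were called every time.

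The genes with the largest falls included class I and class II genes, interferon-inducible GTPases and other interferon-stimulated genes. Among genes with an official symbol, the 12 largest falls in order of size were those of Iigp1, H2-Q4, Oasl2, H2-Ab1, H2-Aa, Gbp8, H2-Q5, H2-Eb1, Tap1, Gbp7, Gbp3 and Rtp4, from -3.59 to -2.01. Of genes without one, Gm8995 changed by -3.09, the GTPase Gm12250 by -2.46 and AW112010 by -2.41. Because these are bulk samples, fewer cells of a type and less RNA per cell cannot be told apart in any result given here.

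Most measured interferon-inducible GTPases, which coat and disrupt the vacuoles of intracellular pathogens, were lower. The other 14 of the 26 listed had no probe set of their own symbol alone. Of 12 measured members 11 were called lower and 0 higher, against 0.988% of all genes lower, and the median change was -1.89. Iigp1, an immunity-related GTPase, was 2.68, 3.94 and 3.72 in CD70TG and -0.22, -0.01 and -0.20 in CD70TG*Ifng-/-. The 3 CD70TG arrays lay above every other array of the series, and the CD70TG*Ifng-/- arrays lay at or below the lowest of the WT values (0.00, 0.33 and 0.58). The change of Iigp1 was -3.59 ± 0.24 (SE), a 12.1-fold fall (adjusted p = 2.59e-06).

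The guanylate-binding proteins, a second GTPase family, followed with a wide range of sizes. Gbp8 was 1.15, 1.69 and 1.43 in CD70TG and -0.88, -0.99 and -1.04 in CD70TG*Ifng-/- (-2.39 ± 0.17). The CD70TG*Ifng-/- arrays of Gbp8 also lay below all 3 WT arrays (-0.33, 0.22 and -0.54), and the change against WT was -0.75 (adjusted p = 0.0328). Gbp7 fell by 2.04 ± 0.18, Gbp3 by 2.03 ± 0.18 and Gbp4 by 1.98 ± 0.24. Smaller falls were measured for Gbp5 (-1.17 ± 0.14), Gbp9 (-0.82 ± 0.12) and Gbp2b (-0.73 ± 0.08). The remaining immunity-related GTPases were Gm12250 (-2.46 ± 0.24), Gm12185 (-1.81 ± 0.20) and Irgm1 (-1.14 ± 0.15), which regulates the family. Gbp11 was the member that missed the threshold, at -0.44 ± 0.11 (adjusted p = 0.0591), and it passed without CD70TG 1, without Ifng-/- 1 or without Ifng-/- 2. The transgene comparison, CD70TG against WT, shares the CD70TG arrays with the fall, so its values are only set beside it: 12 of 12 GTPases were called higher there, where 8.23% of all genes were, with a median of 1.55. CD70TG*Ifng-/- against WT had 1 of 12 called lower (1.34% of all genes were) and a median of -0.39.

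The promoters of these genes can be read for the letters of interferon response elements and gamma-activated sites. RefSeq promoter windows (GRCm38.p6, 250 bases before to 50 after the gene start) were matched by Entrez gene identifier for 7 of the 12 GTPases, 15561 of all 19935 genes, 153 of the 197 lower genes and 69 of the 85 higher genes. The response element core was searched on both strands as GAAA, any 2 bases and GAAA again, so TTTC, any 2 bases and TTTC on the printed strand is the same match. The gamma-activated site was searched as TTCNNNGAA, which reads alike on both strands. Matches of either motif are in capitals. The windows shown are those of the 5 largest GTPase, class I and loading falls for which a window was used here, with B2m as the class I light chain and Irf1 as the upstream factor. The window of Psmb9, which fell more than B2m, is not shown because most of it repeats that of Tap1. For Gbp3 and Irf1, which have 2 windows each, the first is shown.
H2-Q4: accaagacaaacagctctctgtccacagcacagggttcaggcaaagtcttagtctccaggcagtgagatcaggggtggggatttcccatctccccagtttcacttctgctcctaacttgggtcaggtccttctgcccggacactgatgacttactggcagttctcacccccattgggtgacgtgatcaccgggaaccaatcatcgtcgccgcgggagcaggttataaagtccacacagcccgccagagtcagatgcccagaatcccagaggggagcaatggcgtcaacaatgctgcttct
Gm12250: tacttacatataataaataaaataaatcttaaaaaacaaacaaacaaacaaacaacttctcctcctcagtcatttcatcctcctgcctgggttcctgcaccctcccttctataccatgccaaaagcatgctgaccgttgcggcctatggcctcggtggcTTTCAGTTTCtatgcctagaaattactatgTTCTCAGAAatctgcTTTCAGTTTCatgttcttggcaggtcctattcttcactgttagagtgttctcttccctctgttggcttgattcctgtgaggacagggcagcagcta
Tap1: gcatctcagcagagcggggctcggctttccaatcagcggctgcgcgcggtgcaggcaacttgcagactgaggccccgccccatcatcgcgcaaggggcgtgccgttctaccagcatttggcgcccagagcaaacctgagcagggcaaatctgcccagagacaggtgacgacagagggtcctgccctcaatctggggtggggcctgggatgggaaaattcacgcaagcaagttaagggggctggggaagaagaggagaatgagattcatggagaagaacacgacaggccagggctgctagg
Gbp7: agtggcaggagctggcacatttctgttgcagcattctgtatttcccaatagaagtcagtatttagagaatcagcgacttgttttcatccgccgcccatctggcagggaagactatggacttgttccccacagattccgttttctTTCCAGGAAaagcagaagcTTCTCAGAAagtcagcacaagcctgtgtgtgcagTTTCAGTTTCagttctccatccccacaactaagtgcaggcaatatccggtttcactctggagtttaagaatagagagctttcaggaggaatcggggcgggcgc
Gbp3: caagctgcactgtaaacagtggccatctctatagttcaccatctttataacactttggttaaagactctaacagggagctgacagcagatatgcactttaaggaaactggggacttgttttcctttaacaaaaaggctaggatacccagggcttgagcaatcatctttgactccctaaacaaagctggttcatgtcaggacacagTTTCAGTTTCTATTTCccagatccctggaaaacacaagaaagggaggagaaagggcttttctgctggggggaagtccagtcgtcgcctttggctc
B2m: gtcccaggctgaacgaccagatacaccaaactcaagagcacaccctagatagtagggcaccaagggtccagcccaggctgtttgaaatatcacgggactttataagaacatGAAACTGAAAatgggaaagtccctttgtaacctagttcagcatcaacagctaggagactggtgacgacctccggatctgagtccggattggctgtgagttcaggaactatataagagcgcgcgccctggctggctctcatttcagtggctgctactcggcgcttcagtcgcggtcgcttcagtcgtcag
Irf1: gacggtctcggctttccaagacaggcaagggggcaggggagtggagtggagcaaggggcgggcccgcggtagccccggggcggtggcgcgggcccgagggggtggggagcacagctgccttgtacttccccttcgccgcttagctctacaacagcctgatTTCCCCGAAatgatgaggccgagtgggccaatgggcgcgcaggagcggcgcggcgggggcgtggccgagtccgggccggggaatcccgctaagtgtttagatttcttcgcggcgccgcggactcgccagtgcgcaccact

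The windows lie at chr17:35379367-35379666, chr11:58183593-58183892, chr17:34187306-34187605, chr3:142530086-142530385, chr3:142559794-142560093, chr2:122147437-122147736 and chr11:53769764-53770063 in the order printed, all on the plus strand. Gm12250 has 2 copies of the response element core in its minus-strand form, starting at positions -91 and -46 from the gene start, with a gamma-activated site at -61 between them. Gbp7 has the core at -53 and gamma-activated sites at -106 and -87, and Gbp3 has overlapping cores at -45 and -39. B2m has 1 core, at -139, and Irf1 has 1 gamma-activated site, at -90. The windows of H2-Q4 and Tap1 hold neither motif, which says only that these letters are not in these windows. The Tap1 window shares 275 of its 300 bases with that of Psmb9, which is read from the opposite strand.

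A gene was counted where any of its windows held the motif. The response element core was found for 605 of the 15561 genes (3.89%). Among the lower genes it was found in 36 of 153 (23.5%), and among the higher genes in 4 of 69 (5.8%). All 7 GTPases with a window held it, as did 2 of 11 genes of the immunoproteasome and loading list, 1 of 8 of the class II list and 0 of 28 of the resident macrophage list. With the window cut to the last 100 bases before the start and the 50 after it, the shares were 1.59% of all genes, 17.6% of the lower genes and 1.45% of the higher genes. The gamma-activated site was found for 9.01% of all genes, 14.4% of the lower genes and 4.35% of the higher genes. These shares are descriptions, and a match is not evidence of binding.

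**Figure D1:**
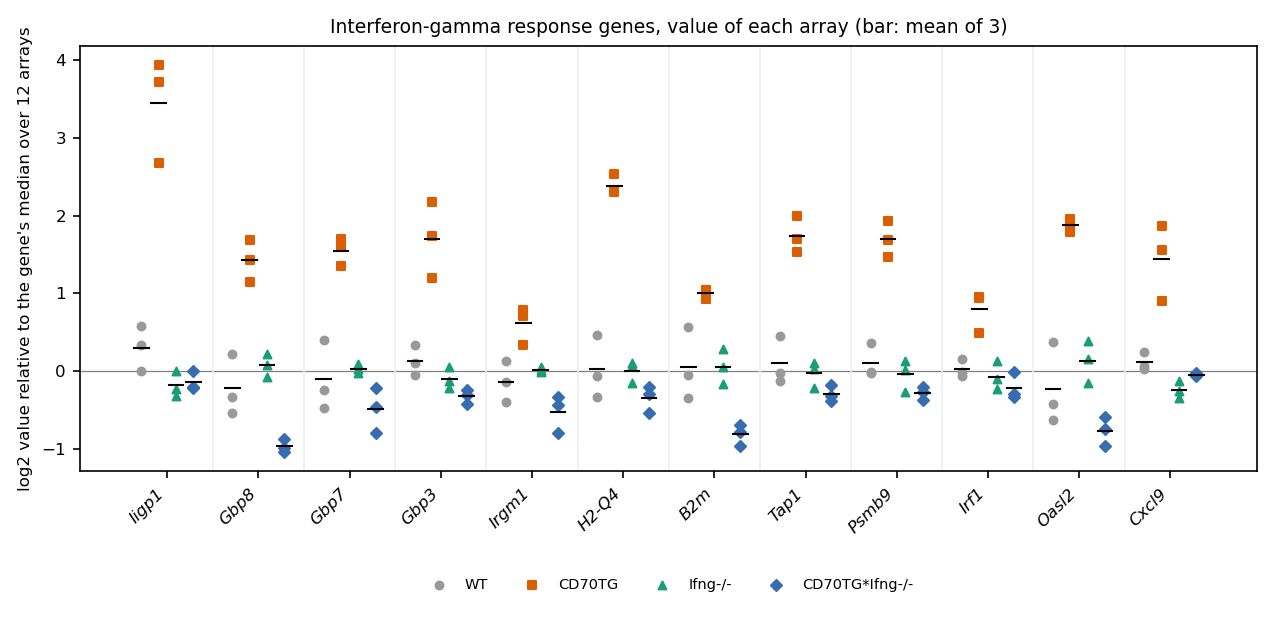
Value of each array for 12 interferon-gamma response genes in the 4 groups, as log2 relative to the gene's median over the 12 arrays; short bars are means of 3. The 3 CD70TG arrays lie above the 3 CD70TG*Ifng-/- arrays for every gene drawn, with mean changes of -3.59 for Iigp1 and -1.01 for Irf1.

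Among the measured class I genes, the light chain and part of the heavy chains fell. B2m, the light chain of all class I molecules, was 1.05, 1.04 and 0.93 in CD70TG and -0.69, -0.97 and -0.79 in CD70TG*Ifng-/-. The groups were far apart, and the change was -1.82 ± 0.18, a 3.54-fold fall (adjusted p = 6.51e-05). All 3 CD70TG*Ifng-/- arrays of B2m were also below the WT values of -0.34, -0.06 and 0.57, and the change against WT was -0.87 (adjusted p = 0.0202). The heavy chain H2-Q4 was 2.32, 2.54 and 2.30 in CD70TG and -0.30, -0.54 and -0.21 in CD70TG*Ifng-/- (-2.73 ± 0.16). H2-Q5 fell by 2.13 ± 0.19 and H2-T10 by 2.00 ± 0.20. Of the 13 measured members these 4 were called lower, against 0.988% of all genes, and 0 higher, with a median of -0.26. The next, H2-M3, a heavy chain that presents formylated peptides, was at -0.59 ± 0.14 (adjusted p = 0.0646). The probe sets of heavy chains can share probes with their near-identical neighbours. The values of H2-Q4, H2-Q5 and H2-T10 are therefore uncertain as separate measurements. Of the 24 listed class I genes, B2m among them, 11 had no probe set of their own symbol alone. The heavy chains H2-K1 and H2-D1 were not among the measured members.

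The immunoproteasome, a form of the proteasome with 3 exchanged catalytic subunits, and the proteins that load peptides onto class I were lower as a group. Of 13 measured members 10 were called lower, against 0.988% of all genes, and 0 higher. All 13 changes were below 0, with a median of -0.84. Tap1, a chain of the peptide transporter, was 1.53, 2.00 and 1.71 in CD70TG and -0.33, -0.39 and -0.18 in CD70TG*Ifng-/- (-2.04 ± 0.15). Psmb9 was 1.46, 1.69 and 1.94 against -0.28, -0.20 and -0.37 (-1.98 ± 0.13). The other exchanged catalytic subunits fell less, Psmb10 by 1.33 ± 0.12 and Psmb8 by 1.16 ± 0.17. The activator chains Psme1 and Psme2 changed by -0.98 ± 0.10 and -0.84 ± 0.12. Erap1, which trims peptides, fell by 1.26 ± 0.13, and the loading chaperones Tapbpl and Tapbp by 0.76 ± 0.11 and 0.59 ± 0.08. Tap2, the partner of Tap1, fell by 0.54 ± 0.11 (adjusted p = 0.0175), and its call was lost without CD70TG 2, CD70TG 3, CD70TG*Ifng-/- 2 or CD70TG*Ifng-/- 3.

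The constitutive proteasome, whose subunits the immunoproteasome replaces in part, had 1 of 32 measured members called, Psmb2 (-0.43 ± 0.09, adjusted p = 0.0241), with a median of -0.11. The Psmb2 call was lost without CD70TG 2, CD70TG 3, CD70TG*Ifng-/- 2 or CD70TG*Ifng-/- 3, and 2 members were called without Ifng-/- 1, Ifng-/- 2 or CD70TG*Ifng-/- 1. In CD70TG against WT, 21 of these 32 were called higher, where 8.23% of all genes were. In CD70TG*Ifng-/- against WT 3 of them were, where 0.446% of all genes were.

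Class II genes, which present peptides to helper T cells, fell in the same comparison. Of 11 measured members 6 were called lower, against 0.988% of all genes, and 0 higher, with a median of -0.95. H2-Ab1, a class II beta chain, was 0.52, 1.45 and 1.79 in CD70TG and -1.20, -1.64 and -1.13 in CD70TG*Ifng-/- (-2.57 ± 0.29). H2-Aa and H2-Eb1 fell by 2.49 ± 0.34 and 2.06 ± 0.30. CD70TG 1 was the lowest of its group for all 3 chains, and the groups did not overlap. Cd74, the invariant chain that guides class II, was -0.08, 0.66 and 0.92 against -1.23, -1.66 and -0.81 (-1.73 ± 0.31, adjusted p = 0.00902). The Cd74 call was lost without CD70TG 2, without CD70TG 3, without CD70TG*Ifng-/- 2 and under quantile normalization. H2-DMa, which loads class II, fell by 0.95 ± 0.11. Ciita, the coactivator of class II transcription, was at -0.13 ± 0.11 (adjusted p = 0.683) and its groups overlapped.

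Class II and Cd74 are also carried by B cells, monocytes and dendritic cells, whose markers did not move in one way. The monocyte list had 2 of 25 members called lower, Ctss and Fcer1g, against 0.988% of all genes. Ctss is on the class II list too and is among its 6 called genes. The median of the monocyte list was -0.41, with 20 of the 25 changes below 0. Its count of called genes was 6 without Ifng-/- 1, 5 without CD70TG 1, 4 without Ifng-/- 2 and 1 without any 1 of the other 9 arrays. The mean of its centred values per array was -0.47, -0.11 and 0.05 in CD70TG and -0.70, -0.49 and -0.61 in CD70TG*Ifng-/-. The dendritic list had 1 of 18 called, Bst2 (-0.56), itself an interferon target, against 0.988% of all genes lower, and a median of 0.05. The Bst2 call was lost without CD70TG 2, CD70TG 3, CD70TG*Ifng-/- 1 or CD70TG*Ifng-/- 3. The B lineage list had a median of 0.22. The part of these cells in the class II result was not tested.

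Of 20 measured transcription factors, receptors and other signalling genes of the pathway 3 were called lower and 0 higher, against 0.988% of all genes lower, with a median of -0.06. Irf1 was 0.49, 0.95 and 0.95 in CD70TG and -0.34, -0.02 and -0.30 in CD70TG*Ifng-/- (-1.01 ± 0.13, adjusted p = 0.000756). Its value is the mean of 2 probe sets that disagreed: one fell by 2.02 ± 0.21 (adjusted p = 0.000242 among all probe sets) and the other was at 0.00 ± 0.10. Nlrc5, the coactivator of class I transcription, fell by 0.85 ± 0.11 as the mean of 19 probe sets, of which 15 were called and which ranged from -2.21 to -0.03. Stat3 fell by 0.74 ± 0.15 (adjusted p = 0.0271), and its call was lost on leaving out any 1 of CD70TG 2, CD70TG 3 or the 3 CD70TG*Ifng-/- arrays.

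The receptor chains did not pass: Ifngr1 was at -0.46 ± 0.19 (adjusted p = 0.388) and Ifngr2 at -0.30 ± 0.18 (adjusted p = 0.59). Socs1, a feedback inhibitor of the pathway, was at 0.02 ± 0.12 (adjusted p = 0.979), with a sign that turned under all 3 other scalings. Cd27 was at -0.04 ± 0.10 (adjusted p = 0.9).

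Among other genes known to respond to interferon-gamma, 23 of 42 measured members were called lower, against 0.988% of all genes, and 0 higher. The median was -0.65, and 36 of the 42 changes were below 0. This list and those of type I interferon, chemokines and cell death share members. Fcgr4, an activating Fc receptor of myeloid cells, was 0.37, 0.45 and 0.53 in CD70TG and -1.28, -1.25 and -1.30 in CD70TG*Ifng-/- (-1.73 ± 0.16). Its CD70TG*Ifng-/- arrays lay below every WT array (-0.23, 0.06 and 0.14) as well, by -1.27 (adjusted p = 0.000601). The apolipoprotein gene Apol10a fell by 1.97 ± 0.26, a call lost under quantile normalization. Nmi, an interferon-induced protein, fell by 1.09 ± 0.11, the nucleic acid sensor Zbp1 by 1.25 ± 0.15 and the nucleotide hydrolase Samhd1 by 1.08 ± 0.14. Cd274, the checkpoint ligand PD-L1, fell by 0.89 ± 0.14, and was picked after its value was seen.

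Some chemokines of the interferon response were lower. Of 25 measured members of the chemokine list 3 were called lower, against 0.988% of all genes, and 0 higher. Cxcl9, which attracts activated T cells, was 0.91, 1.56 and 1.87 in CD70TG and -0.07, -0.03 and -0.05 in CD70TG*Ifng-/- (-1.50 ± 0.17). Cxcl10, a ligand of the same receptor, fell by 1.27 ± 0.15 and Ccl8 by 0.71 ± 0.09. Cxcl11, a further ligand of that receptor, was at 0.08 (adjusted p = 0.717) and Ccl5 at -0.87 (adjusted p = 0.396). For Cxcl9 the Ifng-/- arrays were -0.26, -0.12 and -0.35, and the WT arrays 0.03, 0.06 and 0.25.

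Genes best known as type I interferon targets were split. Of 35 measured members 9 were called lower, against 0.988% of all genes, and 0 higher, with a median of -0.23. Without CD70TG*Ifng-/- 2 the list had 4 called, and without CD70TG*Ifng-/- 3 it had 5. Oasl2, of the oligoadenylate synthetase family, was 1.79, 1.95 and 1.87 in CD70TG and -0.59, -0.96 and -0.75 in CD70TG*Ifng-/- (-2.64 ± 0.20). Rtp4 fell by 2.01 ± 0.23, and its CD70TG*Ifng-/- arrays (-1.24, -1.45 and -0.85) lay below WT by -1.03 (adjusted p = 0.035). Ifit1, which binds foreign RNA, differed in shape: CD70TG was -0.12, 0.10 and 0.04, among the WT values, and CD70TG*Ifng-/- was -0.52, -1.05 and -0.83. Its fall was 0.81 ± 0.12, and its difference from WT was -0.02 in CD70TG and -0.83 in CD70TG*Ifng-/- (adjusted p = 0.00199). Ifitm3 fell by 1.22 ± 0.19, Lgals3bp by 0.95 ± 0.17 and Oas1a by 0.43 ± 0.08. The calls of Lgals3bp and Oas1a were lost without CD70TG*Ifng-/- 2 or 3, and that of Oas1a also without CD70TG 1 or 3.

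Several genes of cell death that are also interferon targets were lower. Of 27 measured members 8 were called lower, against 0.988% of all genes, and 0 higher, with a median of -0.13. Mlkl, the executioner of necroptosis, was 0.58, 0.80 and 0.95 in CD70TG and -0.13, -0.39 and -0.10 in CD70TG*Ifng-/- (-0.99 ± 0.13). The inflammasome protease Casp1 fell by 0.94 ± 0.16, the death ligand Tnfsf10 by 0.80 ± 0.11 and the pore-former Gsdmd by 0.44 ± 0.07. Casp8 and Bak1 fell by 0.52 ± 0.11 and 0.50 ± 0.11, and both calls were lost without any 1 CD70TG array, CD70TG*Ifng-/- 2 or CD70TG*Ifng-/- 3. The count was 5 without CD70TG 1 and 4 without CD70TG 2, CD70TG 3, CD70TG*Ifng-/- 2 or CD70TG*Ifng-/- 3. The antiapoptotic gene Bcl2l1, which supports late erythroblasts, was at 0.33 ± 0.08 (adjusted p = 0.069). Of 20 p53 targets, Gadd45a rose by 0.63 ± 0.08 and Ccng1 fell by 0.59 ± 0.13, the latter call lost without WT 3, CD70TG 2, CD70TG 3, CD70TG*Ifng-/- 2 or CD70TG*Ifng-/- 3.

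**Figure D2:**
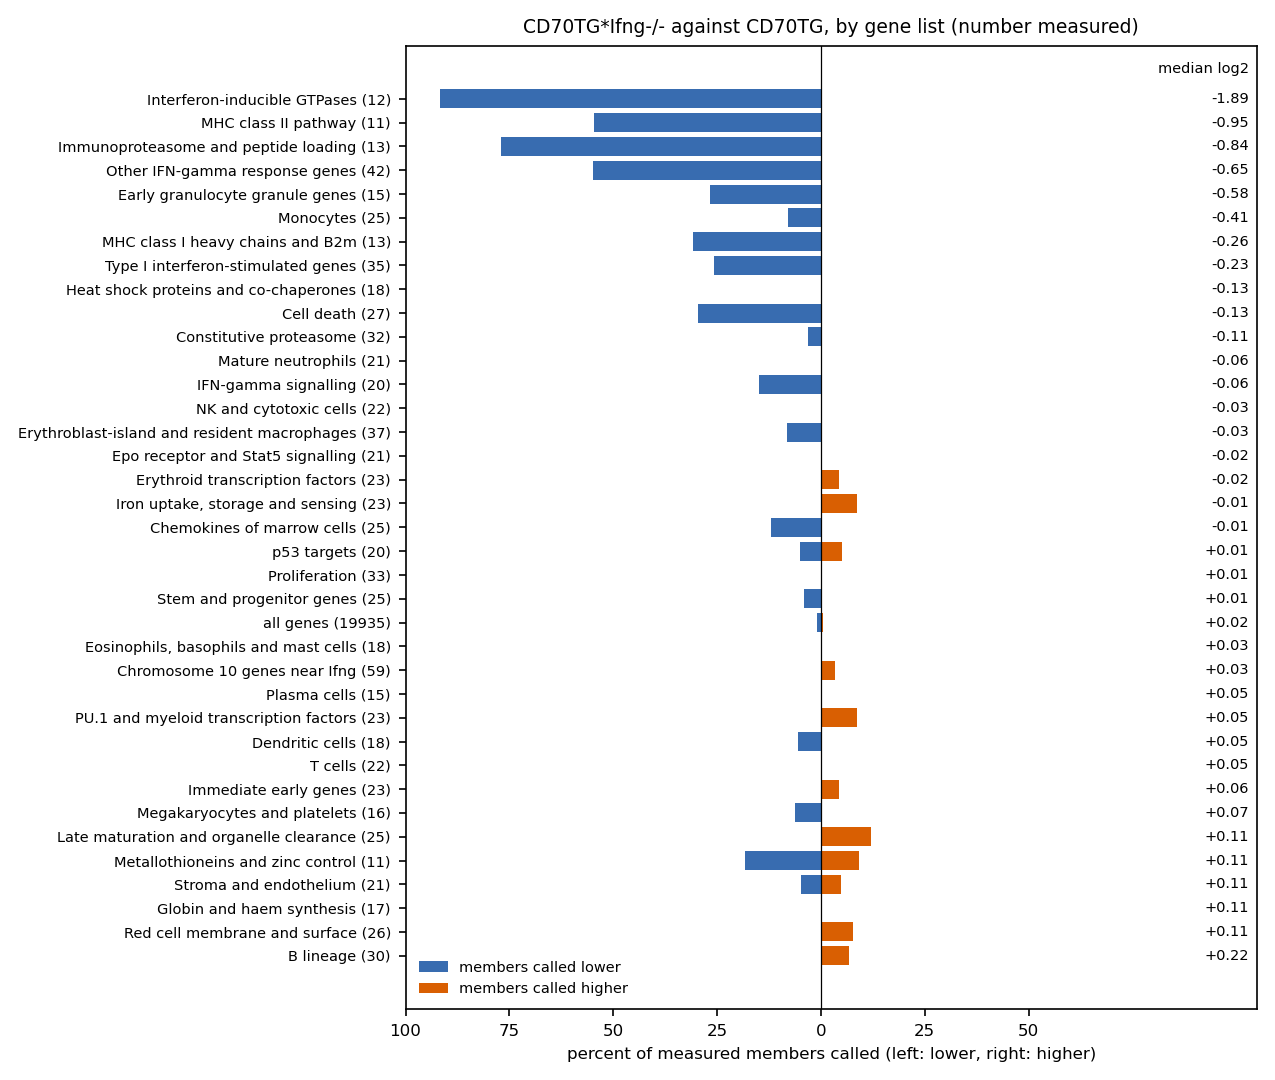
Percent of the measured members of each gene list called lower (bars to the left) or higher (bars to the right) in CD70TG*Ifng-/- against CD70TG, with the list's median log2 change at the right edge. The GTPases (11 of 12 lower) and the immunoproteasome and loading list (10 of 13 lower) stand at one end, against 197 lower and 85 higher among all 19935 genes.

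Macrophage genes were low in both transgenic groups, and loss of Ifng lowered 3 of them further. Of 37 measured genes of resident and erythroblast-island macrophages, 3 were called lower, against 0.988% of all genes, and 0 higher. The median change was -0.03. The mean of the list per array was -0.67, -0.67 and -0.53 in CD70TG and -0.77, -0.78 and -0.78 in CD70TG*Ifng-/-, against 0.55, 1.01 and 0.49 in WT. Set beside each other, CD70TG and CD70TG*Ifng-/- each had 28 of 37 members called lower than WT, where 2.7% and 1.34% of all genes were called lower, with medians of -1.20 and -1.18. These comparisons share the WT arrays.

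Vcam1, by which island macrophages hold erythroblasts, was 1.05, 1.69 and 1.11 in WT, -1.70, -1.75 and -1.05 in CD70TG and -2.68, -2.57 and -2.58 in CD70TG*Ifng-/-. All 3 CD70TG*Ifng-/- arrays were below every CD70TG array (-1.11 ± 0.18, adjusted p = 0.00502). The complement chains C1qb and C1qc fell by 1.01 ± 0.19 and 0.94 ± 0.14, and C1qa was at -0.63 ± 0.18 (adjusted p = 0.144). Cd5l, secreted by tissue macrophages, was at -0.70 ± 0.19 (adjusted p = 0.111). The haem-degrading enzyme Hmox1 (-0.26 ± 0.17), the mannose receptor Mrc1 (-0.26 ± 0.19) and the haemoglobin scavenger receptor Cd163 (-0.12 ± 0.22) did not pass. Under quantile normalization none of Vcam1, C1qb and C1qc was called and Hmox1, Mrc1 and Cd163 turned to 0.06, 0.11 and 0.09. C1qb was also lost without CD70TG*Ifng-/- 3.

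Of 4 lysosomal and myeloid genes outside the macrophage list, Ctsc, Ly86 and Mpeg1 were picked for their falls, after their values were seen. Ctss is a member of the monocyte and class II lists. The lysosomal protease Ctsc was -1.07, -0.44 and 0.27 in CD70TG and -2.45, -2.41 and -2.32 in CD70TG*Ifng-/- (-1.98 ± 0.26). Ctss, the protease that degrades the invariant chain, was -0.98, -0.34 and 0.10 against -2.24, -1.90 and -1.97 (-1.63 ± 0.22). CD70TG 3 was the highest CD70TG array for both and lay within the WT range, and all 3 CD70TG*Ifng-/- arrays lay below all others. Ly86, a partner of a Toll-like receptor relative, fell by 1.37 ± 0.21, and Mpeg1, a pore-former of phagocytes, by 1.20 ± 0.25. The Mpeg1 call was lost without CD70TG 2, CD70TG 3 or any 1 CD70TG*Ifng-/- array. Against WT the CD70TG*Ifng-/- arrays differed by -2.61 for Ctsc, -2.20 for Ctss, -1.88 for Ly86 and -2.22 for Mpeg1, and the CD70TG arrays by -0.63, -0.57, -0.51 and -1.03. In the same arrays the monocyte marker Csf1r was at -0.50 ± 0.13 (adjusted p = 0.096), and Fcer1g, shared by Fc receptors, fell by 0.90 ± 0.21 (adjusted p = 0.0495). The Fcer1g call was lost under all 3 other scalings and without any of 9 of the 12 arrays.

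**Figure D3:**
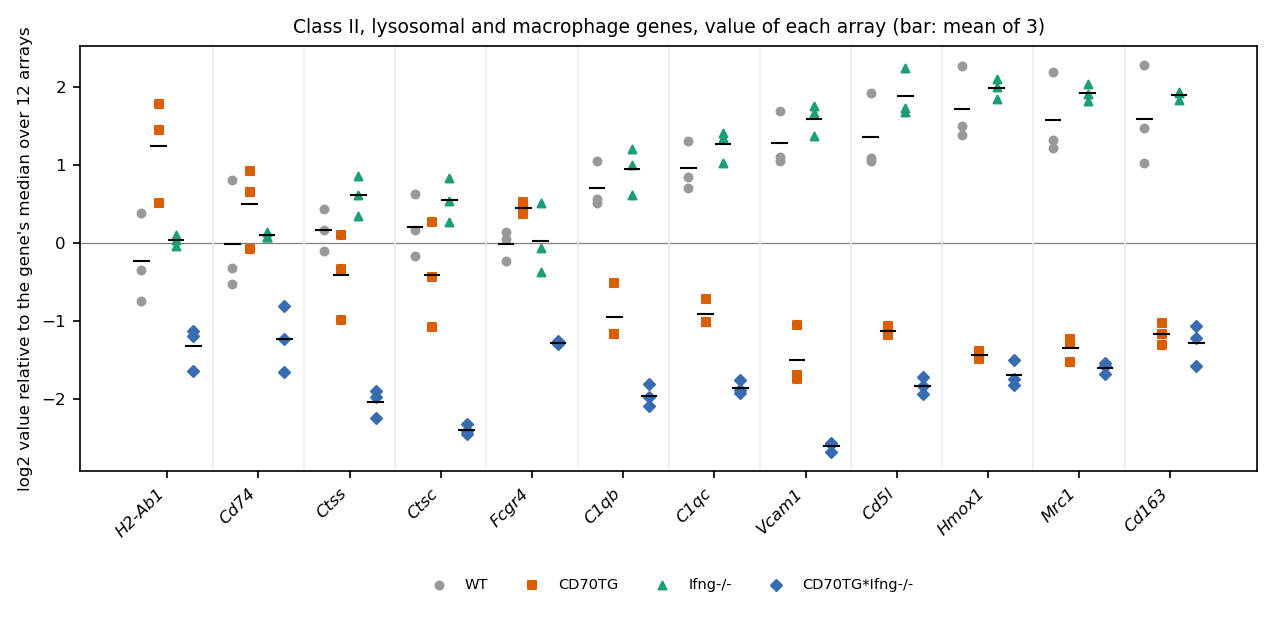
Value of each array for class II, lysosomal and macrophage genes in the 4 groups, as log2 relative to the gene's median over the 12 arrays; short bars are means of 3. Vcam1, C1qb and C1qc are low in CD70TG and lower in CD70TG*Ifng-/-, Hmox1, Mrc1 and Cd163 were not called, and H2-Ab1 has its 3 highest values in CD70TG.

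Some early granulocyte genes were lower. Of 15 measured granule genes of early granulocytes 4 were called lower, against 0.988% of all genes, and 0 higher, with a median of -0.58. Mpo, the myeloperoxidase of primary granules, was 0.69, 0.67 and 2.03 in CD70TG and 0.10, -0.76 and -0.45 in CD70TG*Ifng-/- (-1.50 ± 0.34, adjusted p = 0.0419). Ctsg fell by 1.58 ± 0.32, Prtn3 by 1.29 ± 0.28 and Ms4a3 by 1.34 ± 0.29. Elane, of the same granules, was at -1.28 ± 0.33 (adjusted p = 0.0863). CD70TG 3 stood above the rest for all 5. The count of called granule genes was 1 without WT 1, WT 3, CD70TG 3 or Ifng-/- 3, 2 without WT 2, and 0 without CD70TG*Ifng-/- 2 or CD70TG*Ifng-/- 3. Mature neutrophil genes had 0 of 21 called by limma and 0 at an unadjusted p under 0.05, with changes from -0.29 to 0.24 and a median of -0.06.

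Genes of other blood cells showed few calls. By limma, 0 of 22 T cell genes were called (2 had an unadjusted p under 0.05), 0 of 22 of NK and cytotoxic cells (1), 0 of 15 of plasma cells (3) and 0 of 18 of eosinophils, basophils and mast cells (5). Of all genes, 11.2% had an unadjusted p under 0.05. The T cell gene with the smallest p, Cd3g, was at -0.57 (adjusted p = 0.287). The eosinophil granule genes Ear6 and Prg2 were each at 1.34 (adjusted p = 0.0945 and 0.14), the 2 largest changes above 0 among all genes not called. The platelet list had 1 of 16 called, the thrombin receptor F2r (-0.54), and the stroma list 2 of 21, Vcam1 downward and the collagen chain Col1a2 upward (0.44). The F2r call was lost without CD70TG 2, CD70TG*Ifng-/- 2 or CD70TG*Ifng-/- 3, and that of Col1a2 without WT 1, CD70TG 1, CD70TG 2, Ifng-/- 3, CD70TG*Ifng-/- 1 or CD70TG*Ifng-/- 2.

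B lineage genes were higher in part. Of 30 measured members 2 were called higher and 0 lower, against 0.426% of all genes higher, and 27 of the 30 changes were above 0, with a median of 0.22. Cd79a, a signalling chain of the B cell receptor, was -1.33, -1.08 and -1.01 in CD70TG and -0.08, -0.33 and -0.02 in CD70TG*Ifng-/- (0.99 ± 0.15, adjusted p = 0.00263). The WT values were 0.12, 0.52 and 0.54, so the CD70TG*Ifng-/- arrays lay between the CD70TG and the WT arrays. Ms4a1, which encodes CD20, rose by 0.69 ± 0.16 (adjusted p = 0.0448), a call lost under all 3 other scalings and without any 1 CD70TG or CD70TG*Ifng-/- array, WT 1 or Ifng-/- 3. In CD70TG against WT 21 of the 30 were called lower, and in CD70TG*Ifng-/- against WT 5 were, where 2.7% and 1.34% of all genes were.

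Of 23 transcription factors of the red cell lineage, at which CD71 enrichment aims, 1 was called, Runx1t1, upward (1.26 ± 0.14). Gata1, the master factor of the lineage, was 0.15, 0.20 and 0.00 in CD70TG and 0.21, 0.02 and 0.00 in CD70TG*Ifng-/- (-0.04 ± 0.10, adjusted p = 0.91). Klf1, which drives globin genes, was at 0.05 ± 0.09 (adjusted p = 0.865). The erythropoietin receptor Epor was at 0.11 ± 0.12 (adjusted p = 0.765) and the CD71 gene Tfrc at 0.11 ± 0.08 (adjusted p = 0.637). Spi1, which encodes PU.1, the myeloid factor that opposes Gata1, was -0.23, -0.12 and 0.13 in CD70TG and -0.34, -0.16 and -0.35 in CD70TG*Ifng-/- (-0.21 ± 0.19, adjusted p = 0.71). The groups of these 5 genes overlapped, which does not show that their levels were the same. By limma, 0 of 17 globin and haem synthesis genes were called (9 had an unadjusted p under 0.05), 0 of 21 Epo receptor and Stat5 signalling genes (6) and 0 of 33 proliferation genes (0), where 11.2% of all genes had such a p.

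Some genes of late red cell maturation, the red cell membrane and iron handling rose. The late maturation list had 3 of 25 called higher, the membrane list 2 of 26 and the iron list 2 of 23. Of all genes, 0.426% were called higher. In all 3 lists 0 were called lower. The list medians were 0.11, 0.11 and -0.01 in that order. Changes above 0 numbered 20 of 25, 22 of 26 and 10 of 23, so the iron list did not rise as a whole. Ncoa4, the receptor that delivers ferritin to the lysosome, was -0.61, -0.68 and -0.80 in CD70TG and -0.28, -0.11 and -0.04 in CD70TG*Ifng-/- (0.56 ± 0.08, adjusted p = 0.00135). Iscu, the scaffold of iron-sulphur cluster assembly, rose by 0.52 ± 0.08. The ubiquitin enzyme Ube2o, which remodels the proteome of reticulocytes, rose by 0.49 ± 0.10, the ubiquitin ligase Mkrn1 by 0.35 ± 0.08 and the autophagy protease Atg4a by 0.44 ± 0.10. Bpgm, which makes the haemoglobin effector bisphosphoglycerate, rose by 0.40 ± 0.07 and Trim10 by 0.45 ± 0.09. Without CD70TG 3, CD70TG*Ifng-/- 2 or CD70TG*Ifng-/- 3 the late maturation and membrane lists had 0 called, and without CD70TG 2 they had 1 each. The late maturation list had 1 called without WT 1. The Mkrn1 call was also lost under median centring and under quantile normalization.

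Riok3, Cat and Cd36, which are outside the red cell lists, were picked for their rises, after their values were seen. In the late maturation list 22 of 25 members did not pass and the median was 0.11. The kinase Riok3 was -0.70, -0.69 and -0.80 in CD70TG and -0.30, -0.12 and -0.05 in CD70TG*Ifng-/- (0.57 ± 0.08). Catalase (Cat) rose by 0.57 ± 0.09 and the scavenger receptor Cd36 by 0.70 ± 0.12, the latter call lost without CD70TG*Ifng-/- 3. Against WT, Riok3 was -0.93 in CD70TG and -0.35 in CD70TG*Ifng-/-, and Ncoa4 -0.77 and -0.21.

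The largest named rises were those of Pawr, Grap2, Runx1t1, Chst10, Reln, Cd79a, Calcrl, Il1rl2, Gpc4, Agtr1a, Aim2 and Prokr1, from 1.67 to 0.81. Grap2, an adaptor of T cell and platelet signalling, was -0.89, -1.10 and -1.70 in CD70TG and 0.30, 0.01 and 0.11 in CD70TG*Ifng-/- (1.37 ± 0.15). The WT arrays were -0.11, -0.01 and 0.02, so Grap2 was low in CD70TG alone. Runx1t1, a corepressor of haematopoietic transcription, was -0.66, -1.13 and -0.72 against 0.52, 0.31 and 0.43 (1.26 ± 0.14). The glycan enzyme Chst10 rose by 1.09 ± 0.16, the receptor gene Calcrl by 0.95 ± 0.14 and the angiotensin receptor Agtr1a by 0.86 ± 0.14, each low in CD70TG and near 0 in the other groups.

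A second pattern, seen for Reln, Aim2 and Il1rl2, was a level above WT in CD70TG*Ifng-/-. Reln, a secreted matrix protein, was 0.08, -0.38 and -0.52 in CD70TG and 0.86, 0.67 and 0.85 in CD70TG*Ifng-/- (1.06 ± 0.15), and 0.93 above WT (adjusted p = 0.00315). The DNA sensor Aim2 rose by 0.83 ± 0.12 and the cytokine receptor Il1rl2 by 0.93 ± 0.15, and they were 0.72 and 0.68 above WT (adjusted p = 0.00556 and 0.0323). The changes that follow are those against CD70TG and are not assigned to this pattern. Prokr1 rose by 0.81 ± 0.11. Gpc4 rose by 0.92 ± 0.20 (adjusted p = 0.0343), a call lost without any of 9 of the 12 arrays. Jun, an immediate early factor, rose by 0.80 ± 0.15 and the repressor Bcl6 by 0.37 ± 0.09; the Jun call was lost without CD70TG 3 or CD70TG*Ifng-/- 3, and the Bcl6 call under all 3 other scalings and without any of 9 arrays. Myc fell by 0.76 ± 0.17 (adjusted p = 0.0349), a call lost without any of 7 arrays and under quantile normalization.

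**Figure D4:**
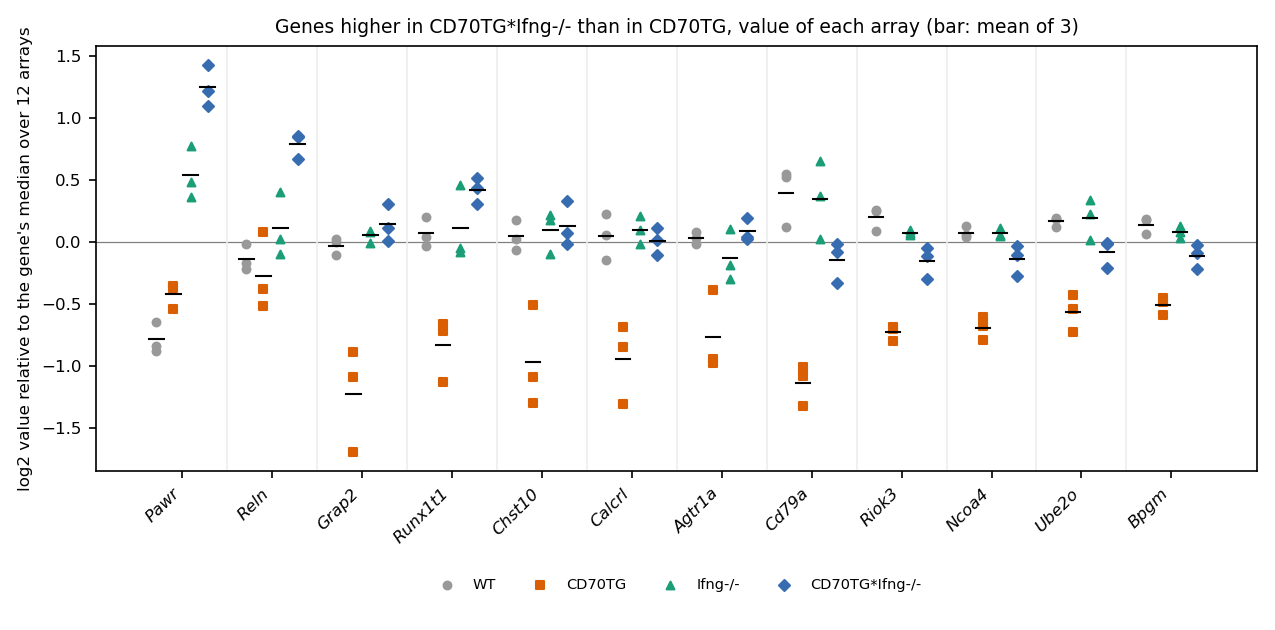
Value of each array for 12 genes that were higher in CD70TG*Ifng-/- than in CD70TG, as log2 relative to the gene's median over the 12 arrays; short bars are means of 3. Grap2, Chst10 and Calcrl are low in CD70TG alone, while Pawr is higher in both groups without Ifng.

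Pawr, a proapoptotic regulator encoded on chromosome 10 like Ifng, stood apart because it followed the Ifng genotype with or without the transgene. It was -0.65, -0.88 and -0.84 in WT and -0.54, -0.37 and -0.36 in CD70TG, below every array of Ifng-/- (0.48, 0.77 and 0.36) and of CD70TG*Ifng-/- (1.09, 1.21 and 1.43). Neither pair of groups overlapped. The rise was 1.67 ± 0.11 with the transgene (adjusted p = 2.59e-06) and 1.32 without it (adjusted p = 0.000215). With the transgene, 2 of 59 measured genes from the neighbourhood of Ifng on chromosome 10 were called higher, against 0.426% of all genes. None was called lower, and the median was 0.03. The second was the tetraspanin Tspan8 (0.53 ± 0.11, adjusted p = 0.0247), at 0.01 in Ifng-/- against WT, whose call was lost without CD70TG 2, CD70TG 3, CD70TG*Ifng-/- 2 or CD70TG*Ifng-/- 3.

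Of 4 measured metallothioneins, which bind zinc and copper, 2 were lower, Mt1 and Mt2, while Mt3 was at 0.13 and Mt4 at 0.11 (adjusted p = 0.7 and 0.747). Mt2 was 1.24, 1.50 and 1.78 in CD70TG and 0.42, 0.04 and 0.03 in CD70TG*Ifng-/- (-1.34 ± 0.14, adjusted p = 0.000162). Mt1 fell by 0.63 ± 0.12, a call lost without CD70TG 3, CD70TG*Ifng-/- 2 or CD70TG*Ifng-/- 3. Of 11 measured genes of the zinc list these 2 were called lower and 1 higher, the transporter Slc30a10 (0.44), a call lost without WT 3, CD70TG 2, CD70TG 3 or any 1 CD70TG*Ifng-/- array. Heat shock proteins and their co-chaperones had 0 of 18 called by limma, and 7 at an unadjusted p under 0.05, which 11.2% of all genes reached.

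Without the transgene, the same loss gave almost no called change. In Ifng-/- against WT 1 of 19935 genes (0.00502%) was called by limma, Pawr, while 2759 (13.8%) had an unadjusted p under 0.05. Leaving out WT 2 gave 42 called genes and leaving out CD70TG*Ifng-/- 2 gave 9, and Ifng-/- 1 and Ifng-/- 2 had the highest and lowest mature neutrophil means of the series, 1.74 and -0.56. The 2 comparisons share no array, so the lists can be set side by side: GTPases had a median of -0.05 without the transgene and -1.89 with it, immunoproteasome and loading genes -0.01 and -0.84, and class II genes 0.12 and -0.95.

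The difference between the 2 effects of Ifng loss was tested directly, as the change with the transgene minus the change without it. It was called in 377 genes (1.89%), of which 321 were more negative with the transgene (1.61%) and 56 more positive (0.281%). With arrays centred within level classes the split was 368 and 130. Of the 282 genes called with the transgene, 178 were also called in this difference, and 199 genes were called in the difference alone. The count fell to 82 without WT 1, 85 without CD70TG*Ifng-/- 2, 88 without CD70TG 2 and 94 without CD70TG*Ifng-/- 3, and rose to 711 without CD70TG*Ifng-/- 1. It was 180 without Ifng-/- 3, 210 without WT 3, 226 without CD70TG 3 and 233 without CD70TG 1.

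**Figure D5:**
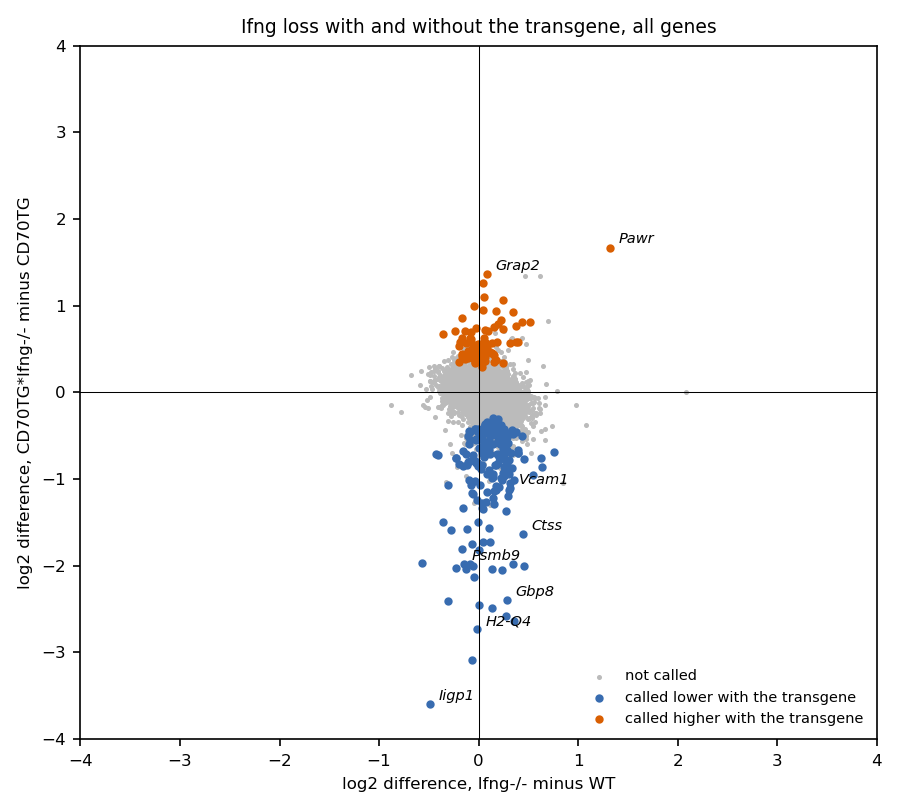
Log2 change of 19935 genes on loss of Ifng without the transgene (horizontal) and with it (vertical), with genes called in the transgenic comparison in colour. The called genes spread from -3.59 to 1.67 on the vertical axis, and Pawr is the 1 gene called on both axes.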

How the data were processed

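The 12 arrays (3 mice in each of 4 genotypes) were 1-colour whole-transcript Affymetrix arrays hybridised with labelled total RNA of CD71-enriched marrow. The authors deposited log2 values made with RMA, which corrects background, equalises arrays and summarises probe sets, per the submitters' processing notes. For its version, annotation and build: not given in the sources used here. Each of 28815 probe sets was centred on its own median over the 12 arrays (0 within 5e-07), as tested on the table. The number of arrays limits the precision, and signal over background cannot be given. The rounding of the stored values placed 4417 probe sets at an original level of at least 8. The other 24398 lay at 4 to 8, had arrays on both sides of 8, or had too few values near their median to be placed.

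Probe sets were named from GEO's platform annotation, which can be old: 21780 had 1 symbol, 1605 several and 5430 none. RefSeq held the Entrez identifiers of 21689 probe sets with 1 symbol and changed 0 symbols. Where a gene had several probe sets (998 of 19935 genes), they were averaged.

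A model of 4 group means was fitted to all 12 arrays with limma 3.58.1 (lmFit, eBayes) in R 4.3.3. Errors are standard errors (SE) of limma's log2 differences, with n = 3 arrays per group. Tested on simulated data of 19935 genes for CD70TG*Ifng-/- against CD70TG, the model recovered 63 of 100 genes changed by 0.5 (log2). It recovered 96 of 100 changed by 1, and called 17 unchanged genes. The simulated deviations were independent between genes and arrays. Those of the real arrays were not, with a correlation across genes of 0.525 between CD70TG 1 and Ifng-/- 2. The simulation therefore does not give the share of false calls in the real data. The named genes are a fixed set of pathway and red cell genes, the 12 largest called changes each way whose groups did not overlap, the 6 largest each way in the difference of the 2 effects of Ifng loss, any gene called without the transgene, up to 6 genes of each list by p, and members of the interferon, antigen presentation and macrophage lists. Genes without an official symbol were skipped in the ranked parts. The comparison, its lists and its tests were chosen with earlier results of these data known, and 36 lists were described by counts and medians, without a set test. Alternatives were other scalings, level class, fit samples, replicate block, probe set choice, robust spread, array weights, threshold and leaving out each array. A filter on dim genes was possible only through the level class.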

Additional observations from a re-analysis of the deposited data

Results flagged for a closer look

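The effect of Ifng loss differed with and without the transgene, by a test of the difference itself (change with the transgene minus change without it), in 377 genes. The 6 most negative named differences were those of Iigp1 (-3.11), Oasl2 (-2.99), H2-Ab1 (-2.85), H2-Q4 (-2.72), Gbp8 (-2.68) and H2-Aa (-2.63). These 6 genes are all interferon or antigen presentation genes. The 6 most positive were Grap2 (1.28), Runx1t1 (1.22), Cd79a (1.04), Chst10 (1.04), Agtr1a (1.02) and the ubiquitin-conjugating enzyme Ube2b (0.94), which was -0.68, -0.55 and -0.66 in CD70TG and -0.17, 0.17 and 0.23 in CD70TG*Ifng-/-.

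Probe sets that the gene comparisons did not use also held calls. With every probe set tested on its own, 31 of 1605 probe sets with several gene symbols were called in CD70TG*Ifng-/- against CD70TG, 30 lower and 1 higher (1.93%, against 1.28% of all probe sets). Of 5430 probe sets with no symbol, 71 were called (1.31%, near the share of all probe sets for both directions together). The directions differed: 14 of these were lower and 57 higher, while among all 28815 probe sets 232 were lower and 136 higher. No gene was named from either kind.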

How the results depend on the processing

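Of 99 called genes checked one by one, 69 were called in each of the 12 fits without 1 array and 86 under each of the 3 other scalings; over 2121 pairs of such a gene and a setting, 1905 kept the call, 216 lost it and 0 changed sign. The 282 genes called with the transgene became 162 among the higher level class alone, 3519 with array weights and 132 at an adjusted p under 0.01. The lower genes became 82, 1789 and 103 under these, and the higher genes 80, 1730 and 29, with 136 with every probe set tested on its own, a setting chosen after seeing the data. The counts of 3519, 1789 and 1730 with array weights lie far above those of every other setting and were held to be implausibly large. Leaving out 1 array gave 136 to 365 called genes (105 to 283 lower, 31 to 102 higher). Without the transgene 1 gene, higher, became 2 with the compared groups alone, 3 with quantile normalization, and 7 in the higher level class and with array weights; leaving out 1 array gave 1 to 42 (0 to 1 lower, 1 to 42 higher). The difference of the 2 effects had 2040 with array weights (1392 lower, 648 higher) and 52 at the stricter threshold (49 and 3), with 35 higher under quantile normalization and 130 higher with centring within level classes; leaving out 1 array gave 82 to 711 (74 to 614 lower, 6 to 97 higher). With 100 bases before the start, the response element core was found for 1.59% of all genes, 17.6% of the lower and 1.45% of the higher genes, and the gamma-activated site in 4.13%, 9.15% and 4.35%. The cause of these shifts was not tested, beyond fewer genes or arrays where the setting itself removes them. Of genes not called, the sign turned for Ifng (0.00 with array weights, -0.03 to 0.13 without 1 array), Socs1 (0.00 with median centring, -0.01 with quantile normalization and with level classes, -0.12 to 0.09 without 1 array), Cd27 (0.08 with array weights, -0.1 to 0.03 without 1 array), Hmox1 (0.06), Mrc1 (0.11) and Cd163 (0.09) under quantile normalization, Cd163 (0.02 with array weights, -0.23 to 0.02 without 1 array), Gata1 (-0.11 to 0.00) and Klf1 (0.00 to 0.11) without 1 array and Epor (-0.07 with array weights).

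Whether the replicate numbers of the labels pair the arrays could not be decided with 3 arrays per group. Same-numbered CD70TG and CD70TG*Ifng-/- arrays had correlations of 0.311, -0.086 and -0.098 between their deviations from the group means. Over all groups, same-numbered arrays ranged from -0.401 to 0.311 and arrays of different number from -0.524 to 0.525. With the replicate number as a block 214 genes were called, 208 of them among the 282, and the difference of the 2 effects had 128 called genes, 112 lower and 16 higher.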
